A study of Saccharomyces cerevisiae with 16 samples.

Results

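The pentose phosphate pathway was followed through the 10 genes that encode its enzymes in budding yeast, *ZWF1*, *SOL3*, *SOL4*, *GND1* and *GND2* of the oxidative branch and *RKI1*, *RPE1*, *TKL1*, *TKL2* and *TAL1* of the non-oxidative branch. They were picked by name and systematic name, and are 10 of the 7126 features in the RNA-seq count table. The table holds 16 libraries from *Saccharomyces cerevisiae* strain YJB622, a *MATa* strain with the deletions *crz1Δ::KanMx* and *hog1Δ::LEU2*, a tagged Hcm1 (*Hcm1-3HA-HIS3*) and the auxotrophic markers *ura3Δ0*, *leu2Δ0*, *his3Δ0* and *met15Δ0*. Every library therefore came from cells that lack both the transcription factor Crz1 and the stress kinase Hog1, and cells with intact *CRZ1* or *HOG1* were not analysed here. Cells were pre-treated for 15 min with either FK506 at 1 μg/ml or ET, its vehicle buffer, and then received 200 mM CaCl2. FK506 inhibits calcineurin (CN), the Ca2+-activated phosphatase. RNA was taken at 0, 10, 30 and 60 min after CaCl2, with 2 replicates for each of the 8 groups, which are FK506 at 0, 10, 30 and 60 min and ET at 0, 10, 30 and 60 min. All groups received CaCl2 after the 0 min sample, so time in culture and CaCl2 cannot be told apart in a comparison with 0 min.

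The pathway draws glucose-6-phosphate away from glycolysis. In the oxidative branch, Zwf1 makes NADPH and a lactone, the lactonases Sol3 and Sol4 open the lactone, and the 6-phosphogluconate dehydrogenases Gnd1 and Gnd2 make a further NADPH together with ribulose-5-phosphate. In the non-oxidative branch, the isomerase Rki1 converts that sugar to ribose-5-phosphate, the precursor of nucleotides, and the epimerase Rpe1 converts it to xylulose-5-phosphate. The transketolases Tkl1 and Tkl2 and the transaldolase Tal1 then pass carbon units between sugars and link the branch back to glycolysis. NADPH feeds biosynthesis and the enzymes that detoxify peroxides, and loss of Zwf1 leaves yeast sensitive to oxidants.

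The 16 libraries held between 11221758 and 11970166 counts, and all 10 genes passed the filter on low counts, as did 6206 features in all. Levels are given as CPM, the counts of a gene among every 1000000 counts of its library, and as CPM per kb of gene length where genes are compared with each other. In a library of this size, 3 counts were at most 0.267 CPM, and the lowest level among the 10 genes was 5.82 CPM. *HOG1* had 0 counts in every library and *CRZ1* 2 counts over all libraries. The mating type genes of **a** cells *MFA1*, *MFA2*, *STE2* and *BAR1* had between 930 and 18121 counts in each library, and those of α cells, *MF(ALPHA)1*, *STE3* and *SAG1*, between 19 and 1069. *SCR1*, a noncoding RNA needed for protein secretion, took 5.76% and 6.45% of the counts in the FK506 libraries at 60 min, against 7.47% and 8.67% in the ET libraries at 60 min, and between 4.03% and 6.34% in the others. The part of this shift in the results was not tested. RNA came from whole cultures, in which fewer cells that express a gene and less RNA per cell cannot be told apart.

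Before CaCl2 the 10 genes spanned a wide range of levels per kb. *TKL1* was the highest in FK506-treated cells at 0 min with 1220.0 ± 4.0 CPM per kb, and *TKL2* the lowest with 5.40 ± 0.62 CPM per kb (SD, n = 2). The order between them was *GND1* (826), *TAL1* (669), *RPE1* (288), *SOL3* (282), *ZWF1* (250), *RKI1* (85.2), *SOL4* (16.9) and *GND2* (9.47), all mean CPM per kb in FK506-treated cells. The order in ET-treated cells at 0 min was the same. The replicates of neighbours in this order overlapped for *RPE1* and *SOL3* in FK506-treated cells and for no other pair at 0 min. In each of the paralog pairs that the list holds, one gene was thus abundant and its partner scarce. A read of 50 bases can be assigned to either partner, because none of the 50 base windows of any of the 10 genes occurred elsewhere in the genome or came within 2 mismatches of its paralog. *GND1* and *GND2* are identical at 78.6% of aligned bases, *TKL1* and *TKL2* at 69.4%, and *SOL3* and *SOL4* at 56.7%. Each gene is a single exon that overlaps no other annotated gene. In the R64 assembly the oxidative genes are *ZWF1* (YNL241C, chrXIV:196426-197943, minus strand), *SOL3* (YHR163W, chrVIII:423724-424473, plus), *SOL4* (YGR248W, chrVII:985972-986739, plus), *GND1* (YHR183W, chrVIII:470960-472429, plus) and *GND2* (YGR256W, chrVII:1004624-1006102, plus). The non-oxidative genes are *RKI1* (YOR095C, chrXV:503552-504328, minus), *RPE1* (YJL121C, chrX:190374-191090, minus), *TKL1* (YPR074C, chrXVI:692796-694838, minus), *TKL2* (YBR117C, chrII:474392-476437, minus) and *TAL1* (YLR354C, chrXII:836350-837357, minus).

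The sequences before 4 of these genes are shown because the genes differ in direction below and because their promoters hold most of the STRE and Stb5 matches described here. The windows run from 250 bases before to 50 bases from the start codon, are read 5′ to 3′ on the gene's strand, and come from RefSeq's R64 assembly, the build of the files. Capitals mark either AGGGG, the stress response element (STRE) that the activators Msn2 and Msn4 bind, or CGGNGTTA, a form of the element bound by Stb5, an activator of NADPH-producing genes. Both strands were searched, so that an STRE may read CCCCT. The order is *ZWF1* (minus strand, chrXIV:197894-198193), *SOL4* (plus strand, chrVII:985722-986021), *GND2* (plus strand, chrVII:1004374-1004673) and *SOL3* (plus strand, chrVIII:423474-423773).
ZWF1: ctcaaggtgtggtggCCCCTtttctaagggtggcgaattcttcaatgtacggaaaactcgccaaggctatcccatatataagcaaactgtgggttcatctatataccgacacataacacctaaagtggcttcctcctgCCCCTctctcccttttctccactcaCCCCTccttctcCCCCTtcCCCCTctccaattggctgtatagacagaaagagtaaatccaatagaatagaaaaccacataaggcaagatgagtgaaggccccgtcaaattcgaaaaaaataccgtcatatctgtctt
SOL4: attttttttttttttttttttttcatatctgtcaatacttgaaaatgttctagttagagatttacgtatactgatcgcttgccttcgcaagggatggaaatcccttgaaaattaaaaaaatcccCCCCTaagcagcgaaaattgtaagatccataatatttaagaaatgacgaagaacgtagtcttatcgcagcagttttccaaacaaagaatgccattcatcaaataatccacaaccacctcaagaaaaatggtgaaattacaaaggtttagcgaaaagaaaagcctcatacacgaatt
GND2: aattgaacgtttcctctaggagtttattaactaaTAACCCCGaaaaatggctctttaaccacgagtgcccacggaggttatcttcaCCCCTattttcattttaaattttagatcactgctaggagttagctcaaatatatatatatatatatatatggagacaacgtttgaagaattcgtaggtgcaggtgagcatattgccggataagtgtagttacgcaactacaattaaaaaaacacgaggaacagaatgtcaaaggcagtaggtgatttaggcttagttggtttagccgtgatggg
SOL3: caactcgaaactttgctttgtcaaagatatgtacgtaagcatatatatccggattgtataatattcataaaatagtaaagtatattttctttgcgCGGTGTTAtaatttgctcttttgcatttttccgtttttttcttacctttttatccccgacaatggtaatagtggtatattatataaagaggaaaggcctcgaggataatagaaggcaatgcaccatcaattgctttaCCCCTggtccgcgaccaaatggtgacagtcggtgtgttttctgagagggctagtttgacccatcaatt
The *ZWF1* window holds 5 STRE matches, all on the opposite strand, which start at -235, -112, -87, -75 and -68 from the start codon. Such a number was found in 4 of 6020 promoters, or 0.0665%, and 1 or more matches in 21.6% of them. *SOL4* has 1 STRE match at -126, *GND2* 1 at -164 and *SOL3* 1 at -18. *TKL1*, *TKL2* and *TAL1* have 1 STRE match each, so that 7 of the 10 windows hold the letters, in genes that rose and in genes that fell after CaCl2. The CGGNGTTA letters are in *GND2* at -216 and in *SOL3* at -155, and this form or its variant CGGNCTTA is in 3.89% of promoters. *TKL1* also has 3 matches to TGANTCA, the element of the amino acid regulator Gcn4, which 7.33% of promoters hold at least once. They start at -224, -136 and 2, and the last overlaps the start codon and coding sequence. *RKI1* and *RPE1* hold no match to any of the motifs searched, which also included TTACTAA (Yap1), GATGAG (PAC) and AAAATTT (RRPE), in this window. These matches are descriptions of sequence and no binding was measured.

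The first question was how the pathway's transcripts moved after CaCl2 with and without active CN. *ZWF1*, *SOL4* and *GND2* rose at 10 and 30 min with either pre-treatment, while most of the other genes fell. At 10 min, 3 genes were higher and 5 lower in FK506-treated cells, and 3 were higher and 4 lower in ET-treated cells. A gene counts as changed here if limma's moderated test on log2 counts, scaled by the TMM method and adjusted by the Benjamini-Hochberg procedure over all 6206 features, gave an adjusted p under 0.05. Of all features, 24.4% were higher and 30.2% lower in FK506-treated cells at 10 min, and 26.6% were higher and 31.8% lower in ET-treated cells. At 30 min, 3 genes were higher and 6 lower with either pre-treatment. The shares of all features at 30 min were 24.5% higher and 27.5% lower in FK506-treated cells, and 33.1% higher and 35.3% lower in ET-treated cells. At 60 min, 1 gene was still higher than at 0 min and 4 lower in FK506-treated cells, where 13.1% of all features were higher and 15.7% lower. In ET-treated cells at 60 min, 3 genes were higher and 6 lower, where 33.6% of all features were higher and 34.7% lower. The genes' median log2 change at 60 min was -0.14 in FK506-treated cells and -0.55 in ET-treated cells, against -0.01 and 0.02 over all features. The genes' median at 30 min was -0.33 in FK506-treated cells and -0.42 in ET-treated cells, against -0.01 and 0.01 over all features.

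**Figure D1:**
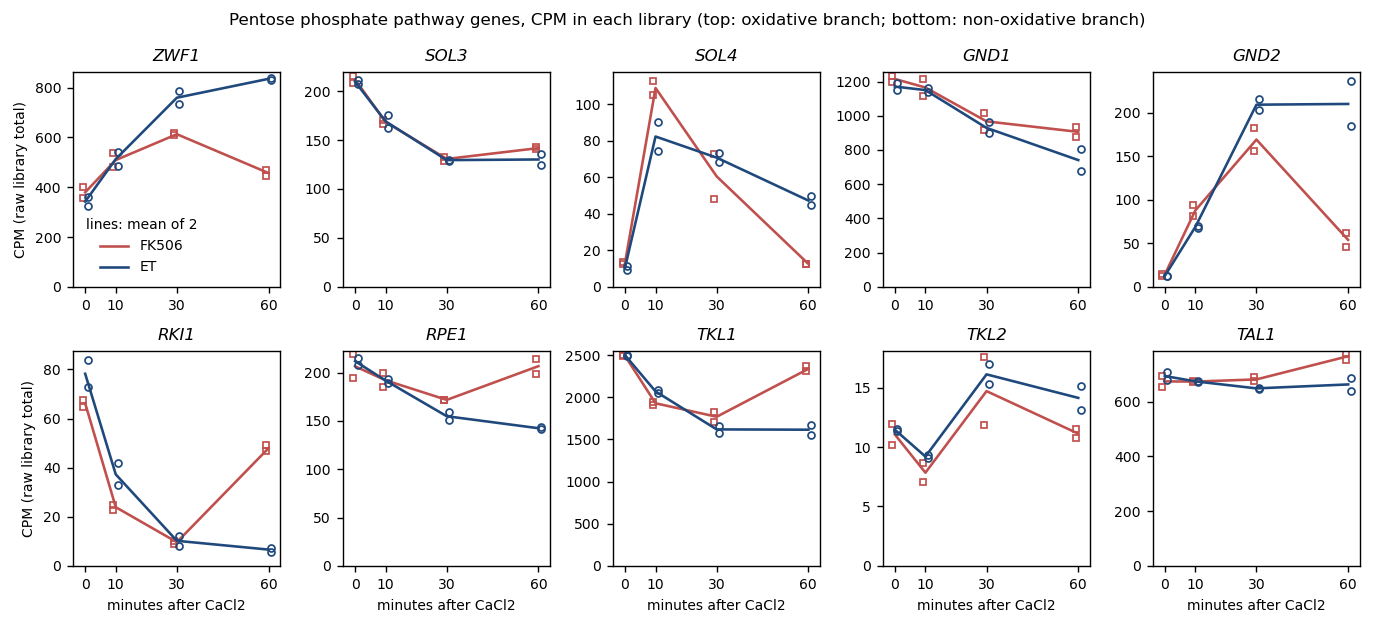
CPM of the 10 genes (vertical axis, from 0, on raw library totals) against minutes after CaCl2 (horizontal axis), 1 panel a gene. Squares are FK506 libraries and circles ET libraries, slightly offset, and lines join the means of 2 replicates. At 60 min the FK506 line lies below the ET line for *ZWF1*, *SOL4* and *GND2*, and above it for *RKI1*, *RPE1* and *TKL1*, where *RKI1* had 46.8 and 49.1 CPM with FK506 and 7.46 and 5.82 CPM with ET.

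*ZWF1*, which encodes the enzyme of the first and committed step, had 358 and 401 CPM at 0 min, 482 and 536 at 10 min, 610.0 and 616 at 30 min, then 469 and 446 at 60 min in FK506-treated cells. In ET-treated cells *ZWF1* had 324 and 361 CPM at 0 min, 484 and 542 at 10 min, 733 and 786 at 30 min, then 838 and 832 at 60 min. The groups did not overlap at 30 or 60 min, where both ET libraries were the higher ones, and they did at 10 min. With FK506 the log2 change from 0 min was 0.37 ± 0.07 at 10 min, 0.49 ± 0.07 at 30 min and 0.15 ± 0.07 at 60 min (SE), of which the last did not pass (limma, adjusted p = 0.12). With ET it was 0.51 ± 0.07, 0.95 ± 0.07 and 1.05 ± 0.07 at the same times, all past the threshold (limma, adjusted p = 1.9e-10 at 60 min). Scaled by raw library totals, the FK506 value at 60 min was 0.27 and passed (adjusted p = 0.0033). On the TMM scale it ranged between 0.052 and 0.242 with single libraries left out.

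*SOL4*, which encodes the scarcer of the lactonases, had the largest rise of the 10 genes at 10 min. It had 12.5 and 13.4 CPM at 0 min, 105 and 113 at 10 min, 72.8 and 48.2 at 30 min, then 12.4 and 12.7 at 60 min in FK506-treated cells. The ET libraries had 9.11 and 11.7 CPM at 0 min, 74.3 and 90.4 at 10 min, 73.4 and 68.2 at 30 min, then 49.9 and 44.7 at 60 min. The FK506 libraries at 60 min were thus within the range of the FK506 libraries at 0 min or just under it, while the ET libraries at 60 min stood well above those at 0 min. The log2 change at 10 min was 3.01 ± 0.21 with FK506 and 2.92 ± 0.23 with ET. At 60 min it was -0.16 ± 0.28 with FK506 (limma, adjusted p = 0.71) and 1.96 ± 0.24 with ET (adjusted p = 1.3e-06). Its partner *SOL3* moved the other way and by less. *SOL3* had 215 and 208 CPM at 0 min, 171 and 166 at 10 min, 133 and 129 at 30 min, then 141 and 142 at 60 min in FK506-treated cells. In ET-treated cells *SOL3* had 212 and 208 CPM at 0 min, 162 and 176 at 10 min, 130.0 and 129.0 at 30 min, then 124 and 136 at 60 min. All 4 libraries at 60 min were below all 4 at 0 min. Its log2 change at 60 min was -0.70 ± 0.06 with FK506 and -0.92 ± 0.06 with ET (limma, adjusted p = 1.1e-07 and 5.6e-10).

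The pair of 6-phosphogluconate dehydrogenases behaved likewise. *GND2* had 13.0 and 15.0 CPM at 0 min, 82.0 and 93.8 at 10 min, 183 and 156 at 30 min, then 61.8 and 46.2 at 60 min in FK506-treated cells. The ET libraries had 11.9 and 12.9 CPM at 0 min, 67.6 and 70.1 at 10 min, 216 and 203 at 30 min, then 236 and 184 at 60 min. Both ET libraries exceeded both FK506 libraries at 30 and 60 min, and at 0 and 10 min the FK506 libraries were the higher ones. Its log2 change was 3.40 ± 0.18 with FK506 and 3.87 ± 0.19 with ET at 30 min, and 1.82 ± 0.20 with FK506 and 3.84 ± 0.19 with ET at 60 min, all past the threshold (limma, highest adjusted p = 1.1e-06). *GND2* was the only one of the 10 genes still called higher at 60 min in FK506-treated cells. *GND1*, the abundant partner, had 1200.0 and 1230.0 CPM at 0 min, 1118 and 1212 at 10 min, 919 and 1015 at 30 min, then 877 and 935 at 60 min in FK506-treated cells. The ET libraries had 1151 and 1190.0 CPM at 0 min, 1137 and 1163 at 10 min, 897 and 961 at 30 min, then 677 and 805 at 60 min. At 60 min both ET libraries were the lower ones. Its log2 change at 60 min was -0.55 ± 0.05 with FK506 and -0.90 ± 0.05 with ET (limma, adjusted p = 1.5e-07 and 4.1e-11). At 10 min *GND1* was not called with either pre-treatment, with log2 changes of -0.12 ± 0.05 for FK506 and -0.10 ± 0.05 for ET (adjusted p = 0.053 and 0.11). The FK506 value passed with no correlation within a time course (-0.12, adjusted p = 0.046) and without FK506 0 min replicate 2 (-0.16, adjusted p = 0.036), FK506 60 min replicate 1 (-0.12, adjusted p = 0.049) or ET 60 min replicate 2 (-0.12, adjusted p = 0.033).

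**Figure D2:**
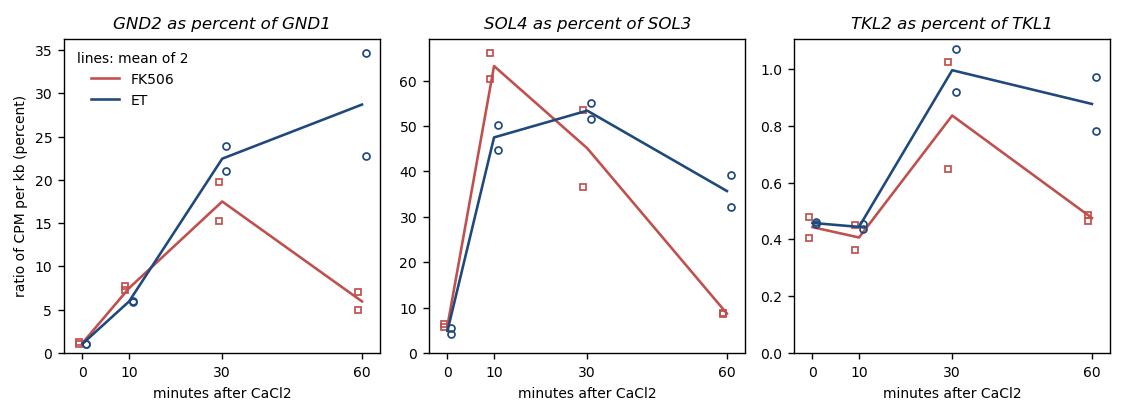
Level of the scarcer paralog as a percent of the abundant one (vertical axis, ratio of CPM per kb, from 0) against minutes after CaCl2, for *GND2* over *GND1*, *SOL4* over *SOL3* and *TKL2* over *TKL1*. Squares are FK506 libraries, circles ET libraries and lines the means of 2. *GND2* over *GND1* at 60 min was 7.004% and 4.91% with FK506 and 34.7% and 22.8% with ET.

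The mix of paralogs therefore shifted within the *GND* and *SOL* pairs, as the ratios of CPM per kb in each library show. At 0 min *GND2* stood at 1.15 ± 0.09% of *GND1* in FK506-treated cells and 1.06 ± 0.03% in ET-treated cells (SD, n = 2). The ratio reached 17.5 ± 3.2% with FK506 and 22.5 ± 2.1% with ET at 30 min. At 60 min it was 5.96 ± 1.5% with FK506 and 28.7 ± 8.4% with ET, with no overlap. *SOL4* stood at 5.98 ± 0.41% of *SOL3* with FK506 and 4.84 ± 0.90% with ET at 0 min, and at 63.2 ± 4.2% with FK506 and 47.5 ± 3.8% with ET at 10 min. At 60 min this ratio was 8.66 ± 0.09% with FK506 and 35.7 ± 5.1% with ET. *TKL2* was at most 1.07% of *TKL1* in any library, and this small ratio moved as well. On the TMM scale *TKL2* itself was not called at 30 or 60 min with either pre-treatment, while *TKL1* was called lower. With ET it was 0.46 ± 0.01% at 0 min, 1.00 ± 0.11% at 30 min and 0.88 ± 0.13% at 60 min. With FK506 it was 0.44 ± 0.05%, 0.84 ± 0.27% and 0.48 ± 0.01% at these times. With 2 libraries against 2, an exact two-sided permutation test of a ratio cannot give a p below 0.333, so no test of the ratios is given. Added over the 5 genes of the oxidative branch, the level at 60 min was 1571 ± 15 CPM with FK506 and 1964 ± 54 CPM with ET. At 0 min it was 1833 ± 48 CPM with FK506 and 1746 ± 54 CPM with ET. These levels are on raw library totals. The TMM factors were 0.91 and 0.92 in the ET libraries at 0 min, and 1.06 and 1.10 at 60 min. For ET, the direction of the change from 0 min in the sum therefore depends on the scaling. *GND1* and *ZWF1* were the largest terms of that sum in every group. *GND2* added 54.0 CPM with FK506 and 210.3 CPM with ET at 60 min, and *SOL4* 12.6 CPM with FK506 and 47.3 CPM with ET.

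*RKI1* encodes the only ribose-5-phosphate isomerase of yeast. By log2 change it fell further than any other gene of the 10, except at 60 min with FK506, where *SOL3* fell further. In FK506-treated cells *RKI1* had 67.5 and 64.9 CPM at 0 min, 25.0 and 22.9 at 10 min, 9.10 and 10.2 at 30 min, then 46.8 and 49.1 at 60 min. In ET-treated cells *RKI1* had 83.7 and 72.7 CPM at 0 min, 41.7 and 32.8 at 10 min, 12.3 and 8.19 at 30 min, then 7.46 and 5.82 at 60 min. Both FK506 libraries were below both ET libraries at 0 and 10 min, the groups overlapped at 30 min, and at 60 min both FK506 libraries were several times higher. The log2 change from 0 min was -1.52 ± 0.13 at 10 min, -2.98 ± 0.17 at 30 min and -0.59 ± 0.11 at 60 min with FK506 (limma, highest adjusted p = 4e-04). With ET it was -1.14 ± 0.11, -3.15 ± 0.17 and -3.79 ± 0.20 at these times (limma, highest adjusted p = 1.7e-07). *RPE1*, the gene of the enzyme at the same fork, moved much less. *RPE1* had 219 and 194 CPM at 0 min, 199 and 185 at 10 min, 171 and 172 at 30 min, then 214 and 199 at 60 min in FK506-treated cells. The ET libraries had 216 and 208 CPM at 0 min, 194 and 190 at 10 min, 159 and 151 at 30 min, then 144 and 141 at 60 min. At 60 min the FK506 libraries were within the range seen at 0 min and the ET libraries below it. Its log2 change at 60 min was -0.12 ± 0.06 with FK506 (limma, adjusted p = 0.13) and -0.81 ± 0.06 with ET (adjusted p = 1.3e-09). The call of *RPE1* at 10 min in FK506-treated cells, -0.16 ± 0.06 (adjusted p = 0.025), was lost in several alternatives, with -0.09 (adjusted p = 0.27) without FK506 0 min replicate 1. In ET-treated cells at 10 min it was -0.21 ± 0.06 (adjusted p = 0.0041), and -0.17 (adjusted p = 0.057) without ET 10 min replicate 1.

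*TKL1*, the most abundant transcript of the pathway, had 2487 and 2499 CPM at 0 min, 1950.0 and 1909 at 10 min, 1713 and 1826 at 30 min, then 2368 and 2308 at 60 min in FK506-treated cells. In ET-treated cells *TKL1* had 2496 and 2506 CPM at 0 min, 2089 and 2052 at 10 min, 1581 and 1658 at 30 min, then 1559 and 1673 at 60 min. It fell in all groups at 10 and 30 min, and at 60 min only the FK506 libraries were close to their level at 0 min. The log2 change at 60 min was -0.22 ± 0.05 with FK506 and -0.87 ± 0.05 with ET (limma, adjusted p = 0.0017 and 2.4e-11). The FK506 value was -0.09 and not called with raw library totals (adjusted p = 0.14). *TKL2*, its scarce paralog, had between 7.06 and 17.6 CPM over all libraries. It was called in 1 of the 6 comparisons with 0 min, at 10 min with FK506, where it had 7.06 and 8.63 CPM against 11.95 and 10.2 CPM at 0 min, a log2 change of -0.57 ± 0.19 (limma, adjusted p = 0.021). That call was lost without FK506 10 min replicate 1 (-0.34, adjusted p = 0.24) or without FK506 0 min replicate 1 (-0.50, adjusted p = 0.11). With raw library totals *TKL2* was called higher at 30 min with ET (0.49, adjusted p = 0.011), against 0.29 ± 0.16 (adjusted p = 0.12). At 30 min with FK506 it had 17.6 and 11.8 CPM, a log2 change of 0.19 ± 0.17 (adjusted p = 0.37), and without replicate 2 of that group the change was 0.45 (adjusted p = 0.042).

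*TAL1*, the transaldolase gene, had 694 and 655 CPM at 0 min, 672 and 675 at 10 min, 689 and 674 at 30 min, then 779 and 753 at 60 min in FK506-treated cells. The ET libraries had 708 and 680.0 CPM at 0 min, 675 and 674 at 10 min, 652 and 646 at 30 min, then 639 and 687 at 60 min. The FK506 libraries at 60 min stood above the FK506 range at 0 min, and the ET libraries at 10 and 30 min stood below the ET range at 0 min. On the TMM scale, its log2 change at 30 min was -0.19 ± 0.05 with FK506 and -0.30 ± 0.05 with ET (limma, adjusted p = 0.0054 and 5.3e-05), and at 60 min 0.06 ± 0.05 with FK506 and -0.30 ± 0.05 with ET (adjusted p = 0.40 and 4.5e-05). These directions depend on the scaling. Raw library totals moved the median log2 change of all features by 0.20 at 30 min with either pre-treatment, and by 0.12 with FK506 and 0.24 with ET at 60 min. On that scale *TAL1* had a log2 change of 0.02 with FK506 and -0.10 with ET at 30 min, neither called, and of 0.19 with FK506 (called, adjusted p = 0.011) and -0.07 with ET (not called) at 60 min. The call at 30 min with FK506 was also lost without FK506 0 min replicate 1 (-0.14, adjusted p = 0.080) or FK506 30 min replicate 2 (-0.14, adjusted p = 0.083). Added over the 5 genes, the non-oxidative branch stood at 3370 ± 71 CPM with FK506 and 2442 ± 110 CPM with ET at 60 min. At 0 min it stood at 3451 ± 40 CPM with FK506 and 3496 ± 26 CPM with ET (SD, n = 2). Most of this sum was *TKL1*, with 2338 CPM with FK506 and 1616 CPM with ET at 60 min. The sums are on raw library totals. TMM factors in the FK506 libraries were 0.92 and 0.95 at 0 min and 1.00 and 1.03 at 60 min. How near the FK506 sum came to its level at 0 min thus depends on the scaling.

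**Figure D3:**
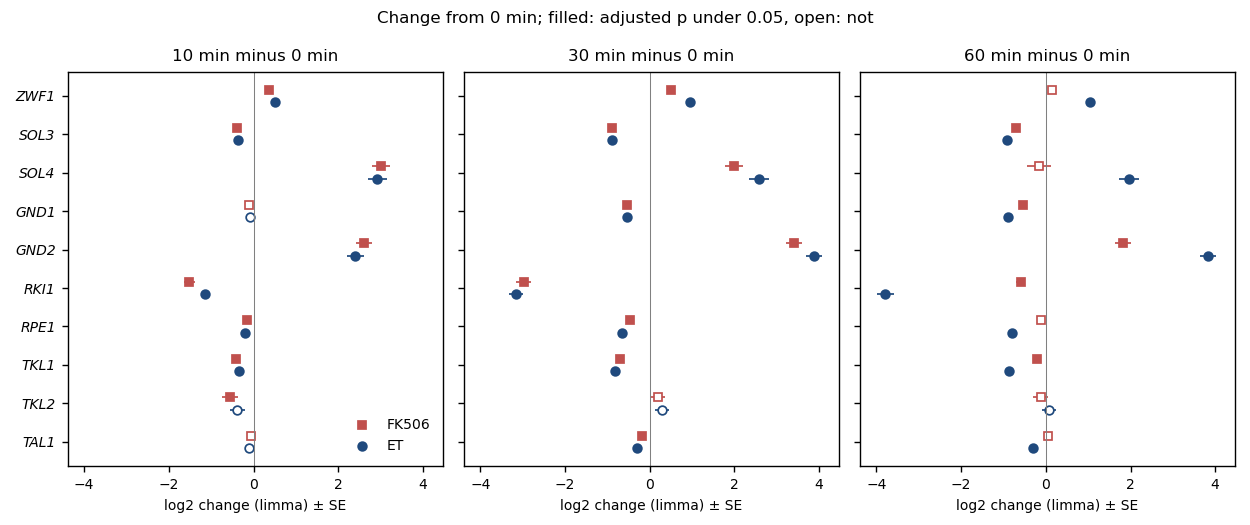
Log2 change from 0 min (horizontal axis, limma estimate with its SE as a bar) for each of the 10 genes (rows) at 10, 30 and 60 min (panels). Squares are FK506 and circles ET, and filled symbols have an adjusted p under 0.05. *SOL4* lies near 3 for both at 10 min, and at 60 min *RKI1* lies at -0.59 with FK506 and -3.79 with ET.

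The second question was which of these changes differed between FK506-treated and ET-treated cells, in which CN was inhibited and free to act. The difference in log2 change from 0 min, FK506 minus ET, was tested in the same limma model. At 10 min it was called for 0 of the 10 genes, as for most features, of which 0.0645% were higher and 0.0161% lower. *RKI1* was the 1 gene with an unadjusted p under 0.05 (-0.38 ± 0.17, adjusted p = 0.67), and edgeR and DESeq2 called 0 as well. Without subtracting the level at 0 min, *RKI1* at 10 min was lower in FK506-treated cells than in ET-treated cells by a called amount (-0.65 ± 0.13, adjusted p = 0.0059). Before CaCl2, 0 of the 10 genes differed between FK506 and ET in limma, edgeR and DESeq2, where 0.661% of all features were higher and 0.902% lower. Again *RKI1* was the 1 gene with an unadjusted p under 0.05, at -0.27 ± 0.09 (adjusted p = 0.16).

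At 30 min the difference was called for 1 gene, *ZWF1*, at -0.46 ± 0.09 (limma, adjusted p = 0.0015). Of all features, 17.8% were higher and 14.0% lower. *SOL4* and *GND2* had differences of -0.59 ± 0.32 and -0.48 ± 0.26 that did not pass (adjusted p = 0.18 and 0.19). *SOL4* had 72.8 and 48.2 CPM in the FK506 libraries at 30 min. Without the first of them its difference was -0.91, and with single libraries left out it ranged between -0.91 and -0.265. *RPE1* had a difference of 0.19 ± 0.08 with all libraries (limma, adjusted p = 0.093), and between 0.125 and 0.256 with single libraries left out. *GND2* passed when the level at 0 min was not subtracted (-0.34 ± 0.10, adjusted p = 0.011).

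At 60 min the difference was called for 9 of the 10 genes, 6 higher and 3 lower, where 27.9% of all features were higher and 24.0% lower. The genes' median was 0.29 and that of all features 0.01, a value that raw library totals moved by -0.11. *ZWF1*, *SOL4* and *GND2* had the negative differences, at -0.91 ± 0.09, -2.12 ± 0.37 and -2.01 ± 0.27 (limma, adjusted p = 3.6e-07, 0.0001 and 7.3e-06). *RKI1* had the largest difference of the 10, at 3.20 ± 0.22 (adjusted p = 2.4e-09). *RPE1* and *TKL1* followed with 0.69 ± 0.08 and 0.65 ± 0.07 (adjusted p = 1.8e-06 and 2.4e-07), and *TAL1* and *GND1* with 0.36 ± 0.07 and 0.35 ± 0.07 (adjusted p = 0.00035 and 0.00043). *SOL3* passed narrowly at 0.22 ± 0.09 (adjusted p = 0.044) and did not pass in DESeq2 (0.21, adjusted p = 0.11), with RLE scaling (0.21, adjusted p = 0.058), with no filter on low counts (0.20, adjusted p = 0.073) or with raw library totals (0.11, adjusted p = 0.32), nor without any of 9 of the 16 libraries, for example 0.14 (adjusted p = 0.25) without ET 60 min replicate 1. *TKL2*, at -0.18 ± 0.24 (adjusted p = 0.56), was the gene not called. The difference and the change from 0 min in ET-treated cells share the ET libraries and are given side by side only.

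**Figure D4:**
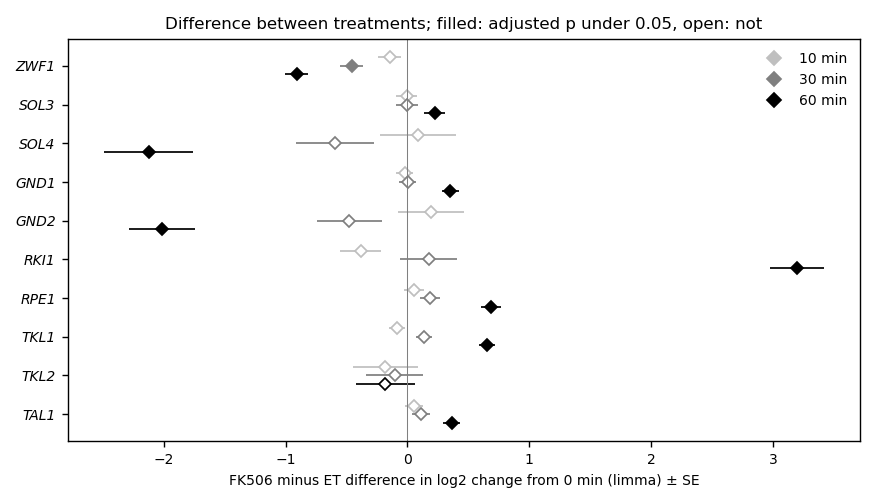
FK506 minus ET difference in log2 change from 0 min (horizontal axis, limma estimate with its SE as a bar) for each gene (rows), with light, medium and dark diamonds for 10, 30 and 60 min and filled symbols where the adjusted p was under 0.05. The dark diamonds of *SOL4* and *GND2* lie near -2 and that of *RKI1* at 3.20, while at 10 min no symbol is filled.

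Between 30 and 60 min, changes were tested within each pre-treatment. The difference between the pre-treatments over this interval was not tested. With FK506, 5 genes had a higher level at 60 min than at 30 min and 3 a lower one, where 23.0% of all features were higher and 17.8% lower. *RKI1* rose by a log2 change of 2.39 ± 0.17 (limma, adjusted p = 1.5e-08), *TKL1* by 0.48 ± 0.05, *RPE1* by 0.34 ± 0.06 and *TAL1* by 0.25 ± 0.05, and *SOL4*, *GND2* and *ZWF1* changed by -2.15 ± 0.22, -1.58 ± 0.12 and -0.35 ± 0.07 (highest adjusted p = 0.00071). *SOL3* was called higher at 0.20 ± 0.07 (adjusted p = 0.022), and not in DESeq2 (0.17, adjusted p = 0.067), nor without FK506 30 min replicate 2 (0.13, adjusted p = 0.21) or either FK506 60 min library. *TKL2* was not called (-0.30 ± 0.17, adjusted p = 0.17), but was without FK506 30 min replicate 2 (-0.55, adjusted p = 0.018). With ET, 0 genes had a higher level at 60 min than at 30 min (4 had an unadjusted p under 0.05 in either direction) and 2 a lower one, where 9.76% of all features were higher and 10.7% lower. The 2 were *SOL4* at -0.62 ± 0.15 (adjusted p = 0.0074) and *GND1* at -0.37 ± 0.05 (adjusted p = 3.8e-05), and *SOL4* missed the threshold without ET 30 min replicate 1 (adjusted p = 0.050) or ET 60 min replicate 2 (adjusted p = 0.067). *RKI1*, at -0.64 ± 0.24, missed it in limma (adjusted p = 0.072) and passed in edgeR (adjusted p = 0.014), in DESeq2 (adjusted p = 0.0065) and without ET 30 min replicate 2 (-0.95, adjusted p = 0.025). The mean of *RKI1* in ET-treated cells was 6.64 CPM at 60 min and 10.2 CPM at 30 min.

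A list of 15 genes around the pathway, among them paralogs of its members, was also read. At 60 min, 5 of the 15 were higher than at 0 min and 6 lower with FK506, and 8 were higher and 7 lower with ET, with median log2 changes of -0.07 and 0.40. The shares of all features in these comparisons were 13.1% higher and 15.7% lower with FK506, and 33.6% higher and 34.7% lower with ET. The difference in change, FK506 minus ET, was called for 14 of them at 60 min, 6 higher and 8 lower, where 27.9% of all features were higher and 24.0% lower. *NQM1*, the paralog of *TAL1*, had 53.3 and 33.1 CPM with FK506 and 202 and 162 CPM with ET at 60 min, and 6.02 and 8.91 CPM with FK506 and 6.68 and 7.20 CPM with ET at 0 min. Both ET libraries at 60 min were thus the higher ones. Its log2 change at 60 min was 2.43 ± 0.26 with FK506 and 4.48 ± 0.25 with ET, and the difference was -2.05 ± 0.36 (limma, adjusted p = 0.00011). The genes *HXK1* and *GLK1*, whose kinases make glucose-6-phosphate, had differences of -1.51 ± 0.12 and -1.57 ± 0.14 at 60 min (adjusted p = 7.6e-09 and 5.4e-08). *HXK2*, whose kinase also makes glucose-6-phosphate, went the other way at 60 min, with 0.45 ± 0.06 (adjusted p = 2.9e-06). It had 2851 and 2888 CPM with FK506 and 2169 and 2300 CPM with ET at 60 min. *HXK1* had 1440.0 and 1290.0 CPM with FK506 and 2722 and 2790.0 CPM with ET at 60 min, and 650.3 and 772 CPM with FK506 and 457 and 472 CPM with ET at 0 min. *HXK1* and *GLK1* already differed before CaCl2, by 0.58 ± 0.08 and 0.51 ± 0.10 on the log2 scale, FK506 minus ET (adjusted p = 0.0012 and 0.015). *XKS1*, the xylulokinase gene, had a difference of -1.12 ± 0.16 (adjusted p = 1.8e-05), and *SOL1* and *SOL2*, lactonase family members, -0.996 ± 0.15 and -0.42 ± 0.13 (adjusted p = 2.4e-05 and 0.011).

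Of the 5 *PRS* genes of the list, 4 had a higher change with FK506 than with ET at 60 min, a call that 27.9% of all features received. *PRS1*, *PRS3* and *PRS4* encode subunits of ribose-phosphate diphosphokinase, which makes the activated ribose of nucleotides. *PRS1* had 282 and 286 CPM with FK506 and 89.8 and 97.1 CPM with ET at 60 min, and 353 and 349 CPM with FK506 and 389 and 387 CPM with ET at 0 min. Both FK506 libraries at 60 min were far above both ET libraries. Log2 changes at 60 min were -0.43 ± 0.06 with FK506 and -2.29 ± 0.07 with ET for *PRS1*, -0.31 ± 0.08 with FK506 and -2.15 ± 0.10 with ET for *PRS3*, and -0.32 ± 0.11 with FK506 and -2.11 ± 0.14 with ET for *PRS4*. Their differences were 1.86 ± 0.09, 1.84 ± 0.13 and 1.79 ± 0.18 (limma, adjusted p = 2.5e-11, 1.9e-09 and 2e-07). *PRS5* had a smaller difference of 0.87 ± 0.09 (adjusted p = 5e-07), and *PRS2* was not called (0.263 ± 0.135, adjusted p = 0.12). *SHB17*, whose phosphatase serves a route to ribose that makes no NADPH, had a difference of 1.06 ± 0.13 (adjusted p = 2.2e-06). Of 7 other genes that supply NADPH or NADP, 1 had a higher and 4 a lower change with FK506 than with ET at 60 min, among them *IDP3*, the peroxisomal isocitrate dehydrogenase gene, at -1.02 ± 0.19 (adjusted p = 0.00021). The shares of all features were 27.9% higher and 24.0% lower, for these genes as for the regulators. Of the regulators *STB5*, *YAP1*, *MSN2* and *MSN4*, 1 differed in change at 60 min, *YAP1* (-1.04 ± 0.09, adjusted p = 2.5e-08). *MSN4* rose at 10 min, by 1.61 ± 0.11 with FK506 and 1.43 ± 0.11 with ET on the log2 scale (adjusted p = 2.9e-09 and 1.5e-08).

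**Figure D5:**
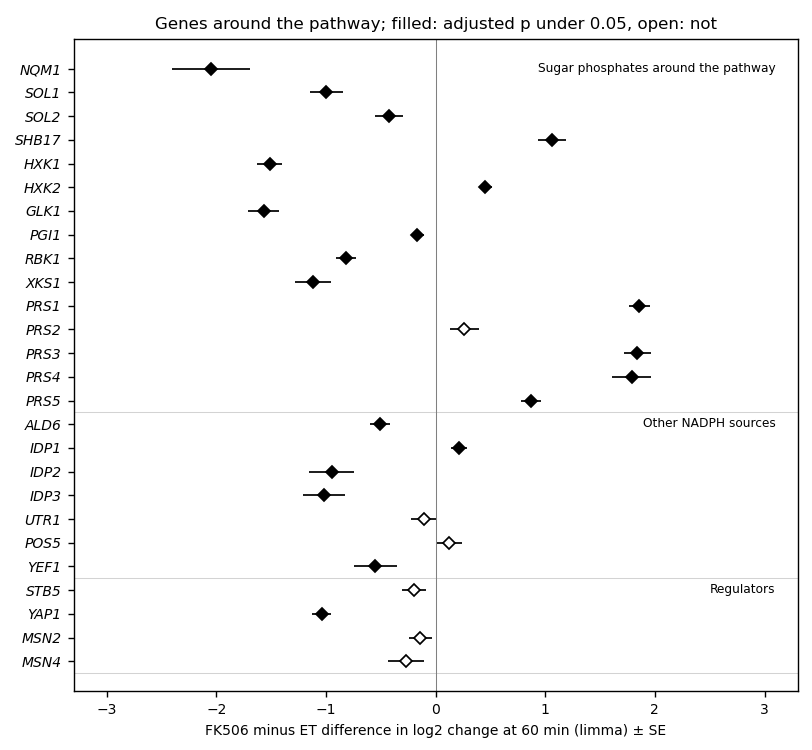
FK506 minus ET difference in log2 change at 60 min (horizontal axis, limma estimate with its SE as a bar) for 15 genes around the pathway, 7 other sources of NADPH or NADP and 4 regulators (rows, grouped), filled where the adjusted p was under 0.05. *NQM1*, *GLK1* and *HXK1* lie between -2.05 and -1.51, and *PRS1*, *PRS3* and *PRS4* between 1.79 and 1.86.

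Over the 8 groups, *ZWF1* and *GND2* ran opposite to most of the other genes, and *SOL4* did so more weakly. As a description over 8 group means of log2 CPM, which share their libraries, *RKI1* and *TKL1* had a Pearson r of 0.99, *RKI1* and *RPE1* 0.97, *ZWF1* and *GND2* 0.93, and *ZWF1* and *TKL1* -0.96. *SOL4*, with its early peak, had r of 0.67 with *ZWF1* and 0.75 with *GND2*. With the other genes its r lay between -0.669 (*TKL1*) and -0.165 (*GND1*). *TKL2* had r between -0.52 and 0.34 with the other 9 genes. Among all 6206 features, *NQM1* had the pattern most like that of *GND2* (r = 0.998), and *NUG1* and *KRR1*, both genes of ribosome assembly factors, those most like *RKI1* (r = 0.996 for each). *AGX1* and *ISN1* were most like *ZWF1* (r = 0.997 and 0.996), *CYC7* and *TPS2* most like *SOL4* (r = 0.994 and 0.992), and *SAM4* and *IMD4* most like *TKL1* (r = 0.998 and 0.996). *ASC1* and *RPS30A* were most like *GND1* (r = 0.994 and 0.990), and *ERI1*, the gene most like *TKL2*, reached 0.958. *YDL241W* and *CCS1* were most like *SOL3* (r = 0.993 and 0.984), *CRS1* and *RPL31B* most like *RPE1* (r = 0.998 and 0.997), and *SAR1* and *BAT1* most like *TAL1* (r = 0.989 and 0.985). These values rest on 8 groups and carry no test.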

How the data were processed

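RNA was sequenced in 16 strand-specific, rRNA-depleted libraries (50 base single-end reads). The authors aligned reads to *S. cerevisiae* R64-1-1 (sacCer3) with TopHat2 2.1.1 and deposited raw counts per gene, not normalized. The study's methods name HTSeq as the counter, whereas the submitters' processing notes list featureCounts (Subread 1.5.3). The methods give default parameters for tools with no setting named, which would cover HTSeq, and settings for featureCounts are not given in the sources used here. From those counts, limma 3.58.1 (R 4.3.3) with voom weights and edgeR 4.0.16 TMM factors was fitted to the 6206 features that passed a filter at a minimum count of 10, with group and replicate number as terms and a common correlation within each time course (-0.12, 7 residual df). Calls used an adjusted p under 0.05 over all 6206 features, in 12 comparisons. CPM used raw library totals, so its ratios differ from the TMM-scaled log2 changes. DESeq2 1.42.0, edgeR's quasi-likelihood test, other scalings and filters, and leaving out each library were alternatives. The code was tested on simulated data.

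Members and lists were chosen with earlier results of these data known. All 10 members are named, and of the lists those genes that passed with a log2 change of at least 1 in size against 0 min, plus paralogs. *YAP1*, *HXK2*, *PRS2* and *PRS5* were named after their values were seen. Replicate number was a term in the fit, and the sources do not say whether same-numbered FK506 and ET time courses were run together. Deviations of same-numbered libraries correlated between -0.05 and 0.27 (median 0.06 over 28 pairs, 12 over 0.1). For the 4 pairs of FK506 and ET at the same time they correlated between 0.10 and 0.18 (median 0.17). The study's methods describe the replicates as biological replicates of each time course. Promoter windows were read from the R64 genome by coordinates.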

Additional observations from a re-analysis of the deposited data

Results flagged for a closer look

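In 10 cases the change from 0 min differed between FK506-treated and ET-treated cells in limma's test of the difference. At 30 min this was so for *ZWF1* (-0.46 on the log2 scale, FK506 minus ET). At 60 min it was so for *ZWF1* (-0.91), *SOL4* (-2.12), *GND2* (-2.01), *RKI1* (3.20), *RPE1* (0.69), *TKL1* (0.65), *TAL1* (0.36), *GND1* (0.35) and *SOL3* (0.22). Groups of 2 libraries are too small for a check of single libraries that stand apart.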

How the results depend on the processing

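All 120 values of the 10 genes in 12 comparisons were recomputed with edgeR, DESeq2, other scalings and filters, and without each library. Of the values for called changes, 1578 kept direction and call, 39 lost the call and 1 reversed. The calls of *GND2*, *SOL4* and *RKI1* against 0 min, and of *RKI1*, *GND2*, *SOL4*, *ZWF1*, *RPE1*, *TKL1*, *TAL1* and *GND1* in the difference at 60 min, held in every alternative run. With 2 libraries a group, small differences can be missed. The cause of the changes below was not tested.

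The fit with no replicate block changed 1 call, *RPE1* at 10 min with FK506 (-0.16, adjusted p = 0.067). Without subtracting 0 min, the difference FK506 minus ET was called for 1 gene at 10 min and 2 at 30 min. Leaving out each library gave 1 to 2 calls in the difference at 30 min, with 2 without FK506 0 min replicate 1 or FK506 30 min replicate 1, and 1 to 3 calls for ET at 60 against 30 min, with 1 without ET 30 min replicate 1 or ET 60 min replicate 2.

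With raw library totals, log2 changes took the other sign for *TAL1* at 30 min with FK506 (0.016), at 60 min with FK506 for *RPE1* (0.002) and *TKL2* (0.008), between FK506 and ET at 0 min for *SOL3* (0.015), and for ET at 60 against 30 min for *SOL3* (0.005) and *TAL1* (0.031). The other sign changes were of uncalled values. In the difference at 10 min, *SOL3* was 0.002 in DESeq2, 0.004 with RLE scaling and 0.001 with at least 10 counts in every library, and without subtracting 0 min *GND1* was 0.002, *RPE1* -0.014 and *TAL1* -0.017. In the difference at 30 min, *SOL3* was 0.001 in DESeq2 and 0.000 with RLE scaling, *GND1* -0.018 with no filter and *RKI1* -0.095 without subtracting 0 min.

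Leaving out each library gave values of either sign for some results not called with all libraries. *TKL2* ranged between -0.035 and 0.159 at 60 min with ET and between -0.055 and 0.446 at 30 min with FK506. In the difference at 10 min the ranges were -0.090 to 0.081 for *SOL3*, -0.157 to 0.348 for *SOL4*, -0.063 to 0.019 for *GND1*, -0.012 to 0.120 for *RPE1* and -0.380 to 0.044 for *TKL2*. At 30 min they were -0.052 to 0.050 for *SOL3*, -0.035 to 0.046 for *GND1*, -0.151 to 0.503 for *RKI1* and -0.342 to 0.115 for *TKL2*. Between FK506 and ET at 0 min they were -0.065 to 0.036 for *SOL3*, -0.016 to 0.066 for *GND1*, -0.013 to 0.304 for *GND2* and -0.180 to 0.015 for *TKL2*. For ET at 60 against 30 min they were -0.093 to 0.025 for *SOL3*, -0.195 to 0.110 for *GND2* and -0.061 to 0.044 for *TAL1*.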
